A study of Rattus norvegicus with 6 samples.

Results

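The isoforms of 4 genes of RNA splicing were followed in whole rat brain: Rsrp1, an arginine- and serine-rich protein related to the SR family of splicing factors, Khsrp, a KH-domain protein that binds AU-rich RNA in splicing and decay, Sf3b1, the largest subunit of the SF3B complex, and Aqr, an intron-binding helicase of the spliceosome. They are 4 of 24744 loci in the deposited annotation and carry 21 of its 64488 quantified isoforms, found through the reference gene name of each locus. The genes were chosen by the isoform counts of these same libraries, because isoforms of their loci differed between the 2 strains, so strain values of theirs below are a description, and where a test of them is counted it stands beside the share of all features and nothing is read from it. The libraries were 3 SHR and 3 BNLx, each made from polyA RNA of 1 untreated male. SHR (SHR/OlaIpcvPrin) is the inbred spontaneously hypertensive rat, and BNLx (BN-Lx/CubPrin) is an inbred Brown Norway congenic strain that carries the polydactyly-luxate locus. No ages were analysed here, and neither strain carries a transgene or received an agent.

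The spliceosome removes introns by recognising a donor site, a branch point and an acceptor site. SF3B, as part of the U2 particle, grips the branch point, and Aqr binds the intron upstream of it. SR proteins and KH-domain proteins bind exons or introns and shift the choice between sites. Transcripts of splicing factors are themselves often spliced in several ways, with introns kept, exons added or acceptors moved, and they can end at several polyA sites. Neurons are known for extensive splicing of this kind and for long 3′ ends.

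Total expected counts, the fractional read counts that RSEM assigns to isoforms, were 21745968 to 41333079 in the SHR libraries and 11747048 to 32826625 in the BNLx libraries. In each strain 1 library was unlike the rest, SHR replicate 1 and BNLx replicate 3. The chi-square per degree of freedom over loci was 114 to 123 for SHR replicate 1 against the other SHR libraries and 8.999 between those, and 75.1 to 89.5 for BNLx replicate 3 against the other BNLx libraries and 10.4 between those. Markers of neurons, astrocytes, oligodendrocytes and microglia were present in every library. Summed astrocyte markers (Slc1a2, Slc1a3 and Gja1) ranged from 1133 to 1844 TPM in SHR and from 948 to 1029 TPM in BNLx, and 5 summed microglia markers from 197 to 281 TPM in SHR and from 185 to 196 TPM in BNLx. Neuron, oligodendrocyte, endothelial and choroid plexus markers overlapped between strains, and no pituitary or blood and liver marker was named in the annotation. Of 6 markers listed for each, the annotation named only Slco1c1 for endothelium and pericyte, and Aqp1 and Kcnj13 for choroid plexus.

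Of the 21 isoforms, 17 reached the filter of 50 counts in 2 of the 3 libraries of at least 1 strain, namely all 4 of Rsrp1, 2 of 3 of Khsrp, 7 of 8 of Sf3b1 and 4 of 6 at the Aqr locus. In the edgeR quasi-likelihood fit, 4 of the 17 had an unadjusted p of 0.001 or less, against 1.00% of all 32348 isoforms past the filter. They were STRG.22384.1, STRG.22384.2 and STRG.22384.3 of Rsrp1 and STRG.33444.2 of Khsrp. DESeq2 gave 7 of the 17 at the same p, against 3.63% of the 32152 isoforms to which it gave a p. The share of the locus did not overlap between strains for 11 of the 17 isoforms (14.4% over all isoforms), and 3 of the 17 were at 0 in every library of 1 strain with at least 50 counts in each library of the other (0.374% over all isoforms). Because this contrast chose the genes, these counts are given beside the background and nothing is read from them. The map of exons shows the isoforms that differed, with their mean shares.

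**Figure D1:**
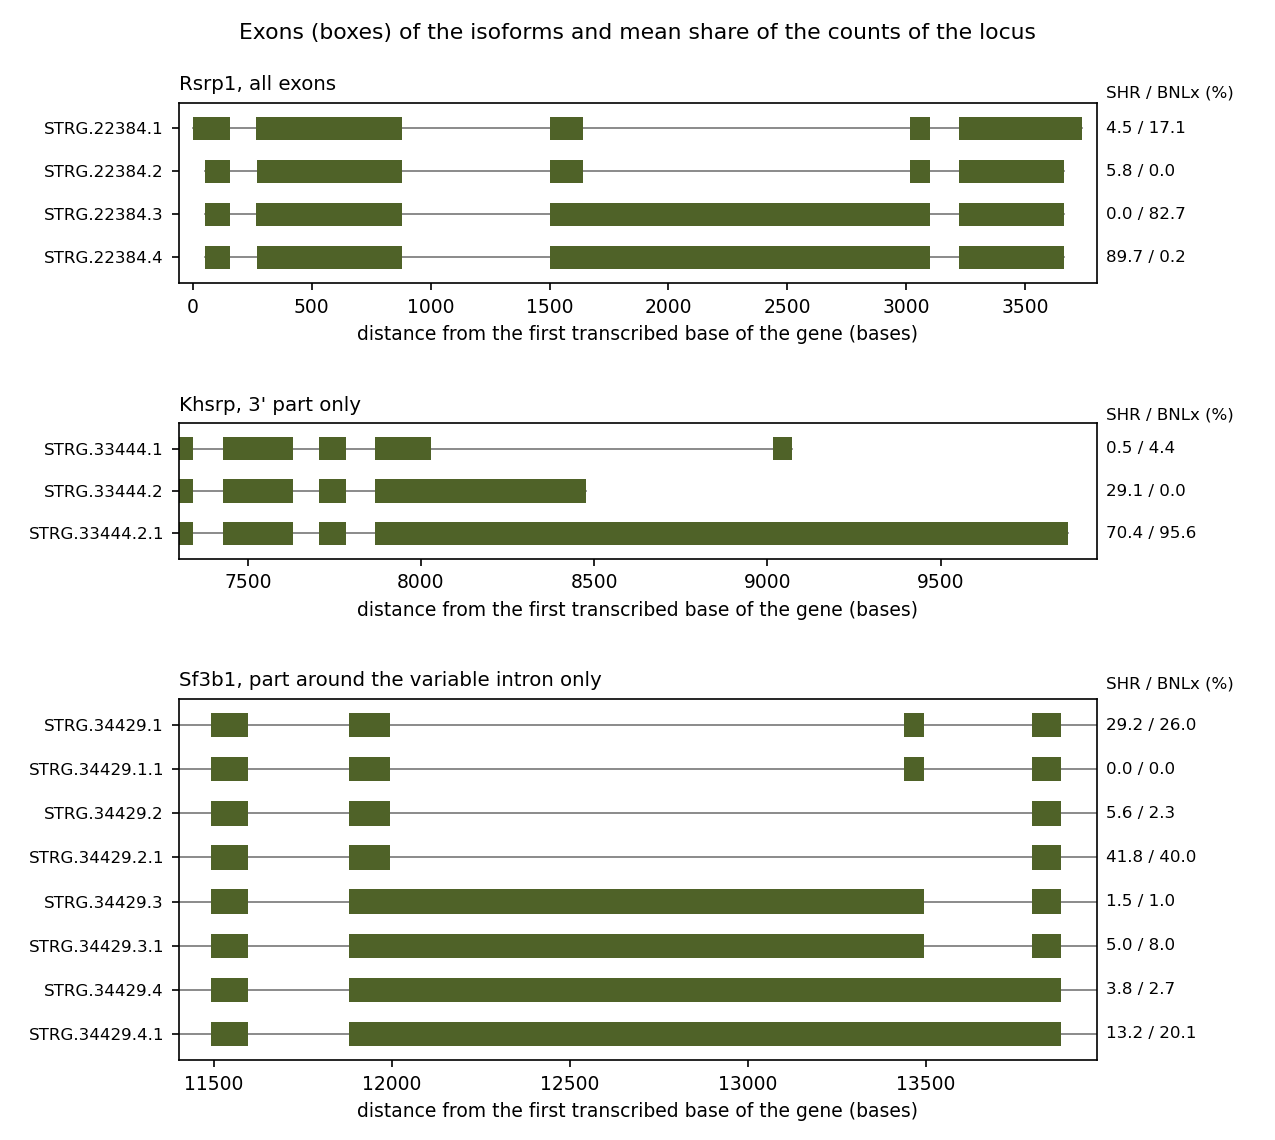
Exons (boxes) and introns (lines) of every isoform of Rsrp1 and of the variable parts of Khsrp and Sf3b1, against distance in bases from the first transcribed base of each gene, with the mean share of the counts of the locus in SHR and in BNLx (n = 3 each) at the right. The acceptors of Rsrp1 exon 2 lie 7 bases apart, so STRG.22384.3 and STRG.22384.4 look alike at this scale, yet STRG.22384.4 held 89.7% in SHR and 0.206% in BNLx.

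Rsrp1 (rn6 chromosome 5, plus strand, 153260930 to 153264669) was read from almost separate sets of isoforms in the strains. Exon 2 starts at 153261195 or, 7 bases downstream, at 153261202, after an intron of 107 bases when counted to the upstream acceptor. The downstream acceptor carried 95.7%, 95.3% and 95.6% of the expected counts in SHR replicates 1 to 3, against 0.618%, 0% and 0% in BNLx replicates 1 to 3. The strains did not overlap, with means of 95.5 ± 0.214% in SHR and 0.206 ± 0.357% in BNLx (SD, n = 3 each). Both Rsrp1 transcripts with a reference identifier, STRG.22384.1 and STRG.22384.3, use the upstream acceptor, and neither downstream-acceptor transcript has one. The reference genome is of the Brown Norway strain, from which BNLx descends.

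A second choice in Rsrp1 is an intron of 1374 bases (153262570 to 153263943) that is either spliced, giving 5 exons, or retained, giving 4. The retained form with the downstream acceptor, STRG.22384.4, held 91.8%, 91.6% and 85.8% of Rsrp1 counts in SHR replicates 1 to 3, against 0.618%, 0% and 0% in BNLx replicates 1 to 3. The retained form with the upstream acceptor, STRG.22384.3, held 0% in each SHR library, against 83.5%, 81.8% and 82.7% in BNLx replicates 1 to 3. These isoforms thus traded places, and each was the main Rsrp1 isoform of its strain in all 3 libraries. In CPM, counts scaled to library size by TMM, STRG.22384.4 averaged 257 ± 38.0 in SHR and 0.877 ± 1.52 in BNLx, and STRG.22384.3 was at 0 in SHR and at 315 ± 40.7 in BNLx (SD, n = 3 each). Against a floor of 3 counts per library, STRG.22384.3 was at least 2730-fold lower in SHR. The 0 in SHR allows a share of up to 0.0215%, 0.0528% and 0.0511% in replicates 1 to 3, a limit that covers counting error only, as do all floors here.

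The spliced forms were the smaller part of Rsrp1 in both strains. STRG.22384.1, with the upstream acceptor, held 4.31%, 4.71% and 4.39% in SHR replicates 1 to 3, against 15.8%, 18.2% and 17.3% in BNLx replicates 1 to 3. STRG.22384.2, with the downstream acceptor, held 3.91%, 3.66% and 9.86% in SHR replicates 1 to 3 and 0% in each BNLx library. The strains did not overlap for either isoform. The log2 fold change of SHR over BNLx was -2.35 (standard error 0.16) for STRG.22384.1, whose mean was 12.7 ± 1.23 CPM in SHR and 65.0 ± 6.66 CPM in BNLx (SD, n = 3 each). STRG.22384.2 averaged 16.2 ± 8.72 CPM in SHR and was at 0 in BNLx, at least 83.5-fold higher in SHR. In SHR, the counts with the upstream acceptor all lay in the spliced STRG.22384.1. In BNLx replicates 1 to 3, 84.1%, 81.8% and 82.7% of the upstream-acceptor counts lay in the retained form. STRG.22384.1 also starts earlier and ends later than the other isoforms. Its share therefore stands for these ends, the upstream acceptor and the spliced intron at once.

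**Figure D2:**
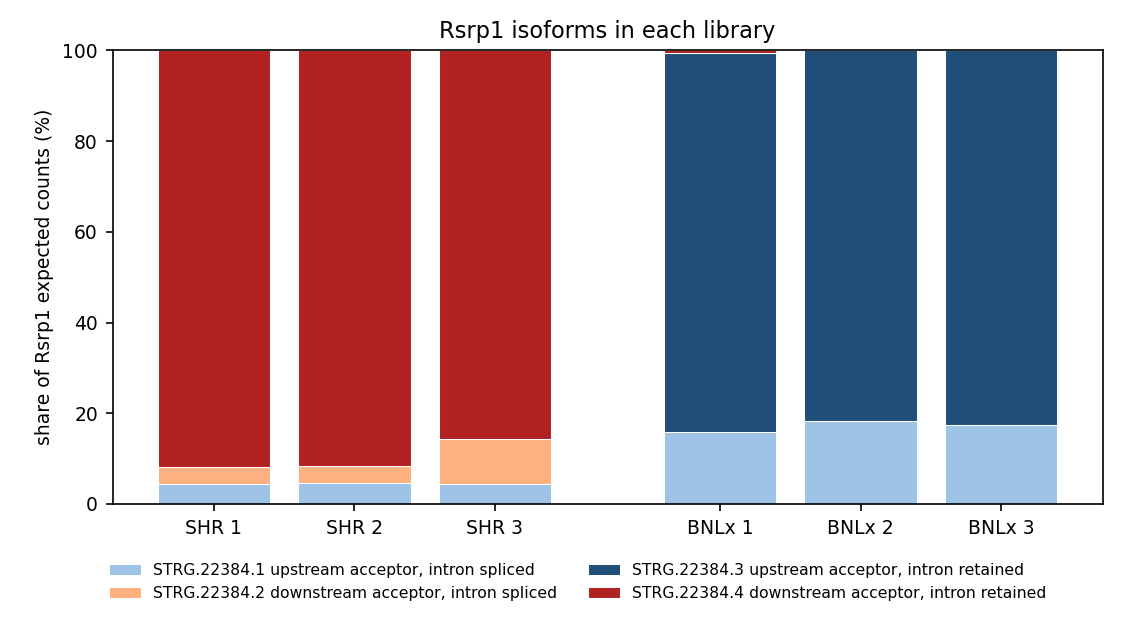
Share of Rsrp1 expected counts (percent, y axis) held by each of its 4 isoforms in the 3 SHR and 3 BNLx libraries (x axis), stacked to 100%. Red and orange mark the downstream acceptor, which fills 95.3% to 95.7% of each SHR bar and at most 0.618% of a BNLx bar, and the dark colours mark the retained intron.

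Summed over both acceptors, the intron was retained in most Rsrp1 counts of every library, at 91.8%, 91.6% and 85.8% in SHR replicates 1 to 3, against 84.2%, 81.8% and 82.7% in BNLx replicates 1 to 3. The strains did not overlap here either, though by a narrow margin, with means of 89.7 ± 3.44% in SHR and 82.9 ± 1.21% in BNLx (SD, n = 3 each). Thus the acceptor differed almost completely and the intron by 6.86 percentage points of the counts. The isoforms that retain the intron are longer and gather more counts per RNA. As a share of TPM, which divides by isoform length, retention was 81.2 ± 5.79% in SHR and 71.6 ± 1.75% in BNLx (SD, n = 3 each). Over 10860 retained introns of 3956 loci, 15.6% did not overlap between strains, and the Rsrp1 intron ranked 2617th by the size of its difference. The acceptor, set among 1255 pairs of acceptors up to 20 bases apart in 1072 loci, had the largest difference of the strain means, and 14.9% of those pairs did not overlap. Of the 1255 pairs, 9 differed by at least 50 percentage points and only Rsrp1 by at least 90. The share of an acceptor sums the counts of whole isoforms that use it. Isoform counts of these libraries chose Rsrp1, so its rank is a description and nothing is read from it.

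**Figure D3:**
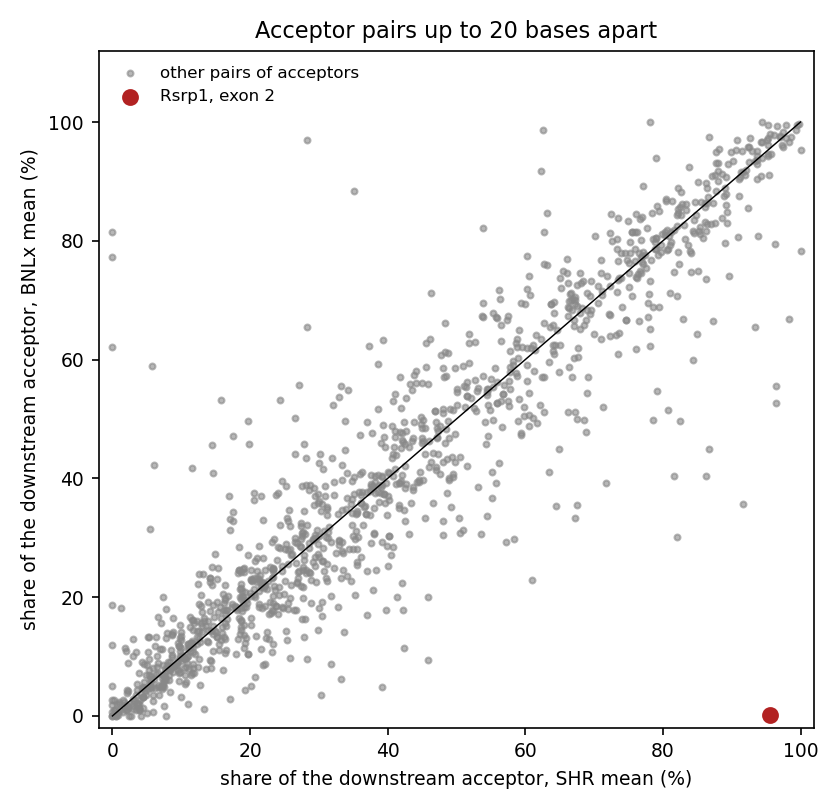
Mean share of the downstream acceptor in SHR (x axis, percent) and in BNLx (y axis, percent) for 1255 pairs of acceptors up to 20 bases apart, each point 1 pair with at least 50 counts in every library and the line marking equal shares. Rsrp1 exon 2 lies at 95.5% in SHR and 0.206% in BNLx, farthest of all pairs from the line, and the gene was chosen by isoform counts of these libraries.

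What reads can tell apart limits these Rsrp1 values. STRG.22384.2, STRG.22384.3 and STRG.22384.4 each have 0 bases and 0 junctions found in no other isoform. The acceptor is seen at the first junction and the intron farther along the RNA, and no single junction ties a given acceptor to a retained intron. Whether RSEM assigned reads of each strain with the sequence of that strain or with 1 sequence for both is not given in the sources used here, and its part in the acceptor shares was not tested. STRG.22384.1 alone has bases of its own, 128 in all, since it starts 52 bases earlier and ends 76 bases later. Without SHR replicate 1 and BNLx replicate 3 the acceptor differed by 95.1 percentage points and the retained intron by 5.73.

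Khsrp (rn6 chromosome 9, plus strand, 10013854 to 10023721) differed between strains in where its last exon ended. The shorter isoform STRG.33444.2 ends at 10022330, and the isoform that aptardi, the authors' polyA site predictor, made from it, STRG.33444.2.1, ends 1391 bases farther along with the same introns. STRG.33444.2 held 18.3%, 36.8% and 32.1% of Khsrp counts in SHR replicates 1 to 3, or 484, 504 and 446 counts, and was at 0 in each BNLx library. The shorter end was thus found in SHR and not in BNLx, where 0 counts allow a share of up to 0.172%, 0.441% and 0.421% in replicates 1 to 3. Its mean in SHR was 18.3 ± 6.32 CPM (SD, n = 3). Against the floor of 3 counts per library in BNLx, this was at least 94.5-fold higher.

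The longer isoform STRG.33444.2.1 was the main Khsrp isoform in all 6 libraries, with 80.2%, 63.2% and 67.9% in SHR replicates 1 to 3, against 100%, 100% and 86.8% in BNLx replicates 1 to 3. The lowest BNLx library lay above the highest SHR library. Its level was 44.2 ± 4.77 CPM in SHR and 53.5 ± 5.13 CPM in BNLx (SD, n = 3 each). The log2 fold change was -0.27 (standard error 0.15). The third isoform, STRG.33444.1, splices to a separate last exon that ends at 10022924 and did not pass the filter. It held counts in 2 libraries only, 39.4 counts in SHR replicate 1 and 94.2 counts in BNLx replicate 3, the same libraries that were unlike the rest of their strain. In BNLx replicate 3 this was 13.2% of Khsrp counts.

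The shorter Khsrp isoform has 0 bases and 0 junctions of its own, whereas the longer one has 1337 bases found in no other isoform. An unnamed locus on the minus strand, STRG.33443, overlaps that stretch, and its 3 transcripts share 527, 617 and 169 exonic bases with Khsrp. The first of them (10022327 to 10022853) held most counts of that locus in every library. The total of that locus was 7.33, 5.02 and 5.25 CPM in SHR replicates 1 to 3, against 5.08, 5.92 and 3.91 CPM in BNLx replicates 1 to 3, and the strains overlapped. The library kit did not mark strand, so reads of that locus and of the longer Khsrp end cannot be told apart. Without SHR replicate 1 and BNLx replicate 3 the shorter end had 34.5 percentage points more in SHR, against 29.1 with all libraries.

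Sf3b1 (rn6 chromosome 9, minus strand, 61593184 to 61634510) differed between strains in degree, and every one of its 7 isoforms past the filter had counts in all 6 libraries. The eighth, STRG.34429.1.1, was at 0 in all of them. The isoforms combine 4 forms of 1 intron of 1805 bases (61620711 to 61622515) with 3 polyA ends. The intron was removed whole, removed around an extra exon of 56 bases (61621015 to 61621070), kept over the 1445 bases between the upstream exon and that extra exon, or kept whole. Removal of the whole intron was the most frequent form, at 46.6%, 47.8% and 47.6% of counts in SHR replicates 1 to 3, against 42.3%, 35.9% and 48.7% in BNLx replicates 1 to 3, and the strains overlapped.

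Isoforms that keep intron sequence made up a smaller share in SHR. The forms that kept the intron in part or whole together held 18.8%, 26.4% and 25.2% of counts in SHR replicates 1 to 3, against 31.4%, 34.9% and 28.9% in BNLx replicates 1 to 3. The strains did not overlap, with means of 23.5 ± 4.08% in SHR and 31.7 ± 3.01% in BNLx (SD, n = 3 each). Of these, the intron kept whole accounted for 17.0 ± 2.97% in SHR and 22.8 ± 2.68% in BNLx, and the intron kept in part for 6.47 ± 1.12% in SHR and 8.96 ± 0.356% in BNLx (SD, n = 3 each). Neither form overlapped between strains when taken alone. Over the 10860 retained introns of 3956 loci, 19.7% differed by 8 percentage points or more. Counted in that way, among the isoforms that either keep or remove an intron, the introns of this stretch ranked 1386th, 1810th and 2478th by the size of their difference. Without SHR replicate 1 and BNLx replicate 3, the difference of the summed forms was -7.38 percentage points, against -8.28 with all libraries.

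The extra exon of 56 bases overlapped between strains. It was included in 34.6%, 25.8% and 27.2% of counts in SHR replicates 1 to 3, against 26.3%, 29.3% and 22.4% in BNLx replicates 1 to 3. The difference of the means, 3.23 percentage points, came to 0.521 without SHR replicate 1 and to -1.27 without both SHR replicate 1 and BNLx replicate 3. The isoform that includes it, STRG.34429.1, starts 9 bases later than STRG.34429.2, as do the forms that keep the intron. Among isoforms with counts, it alone differs by 4 bases at a donor and by 2 bases at an acceptor elsewhere. It is also the only one with the farthest polyA end. Its share therefore stands for the extra exon, this donor, this acceptor and this end at once. It has no reference identifier, and neither do the isoforms that keep the intron.

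Among the 3 polyA ends of Sf3b1, the middle one held a larger share in SHR. It lies 569 bases beyond the nearest and held 10.6%, 10.3% and 11.8% in SHR replicates 1 to 3, against 6.51%, 4.11% and 7.34% in BNLx replicates 1 to 3. The nearest end, which aptardi added to each form, held 54.8%, 63.96% and 61.0% in SHR replicates 1 to 3, against 67.2%, 66.6% and 70.3% in BNLx replicates 1 to 3. Neither end overlapped between strains, and both ranges lay close together for the nearest end. The reference isoform with the middle end, STRG.34429.2, was at 19.0 ± 2.04 CPM in SHR and 7.58 ± 2.56 CPM in BNLx (SD, n = 3 each), with log2 1.32 for SHR over BNLx (standard error 0.31). The other forms with the middle end also had positive log2 fold changes, at 0.63 (standard error 0.35) for STRG.34429.3 and 0.53 (standard error 0.22) for STRG.34429.4. With the nearest end the forms differed in sign, and log2 fold changes were 0.10 (standard error 0.12) for STRG.34429.2.1, in which the intron is removed, and -0.66 (standard error 0.21) and -0.59 (standard error 0.23) for STRG.34429.3.1 and STRG.34429.4.1, which keep it in part or whole. Each isoform with the middle or the nearest end has 0 bases and 0 junctions found in no other isoform. The variable intron and the polyA ends lie many exons apart, and no single junction ties an intron form to an end. The fold changes of single isoforms here therefore rest on how RSEM divided the reads. The farthest end, 2005 bases beyond the nearest, belongs among isoforms with counts to STRG.34429.1 alone and was described with the extra exon.

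**Figure D4:**
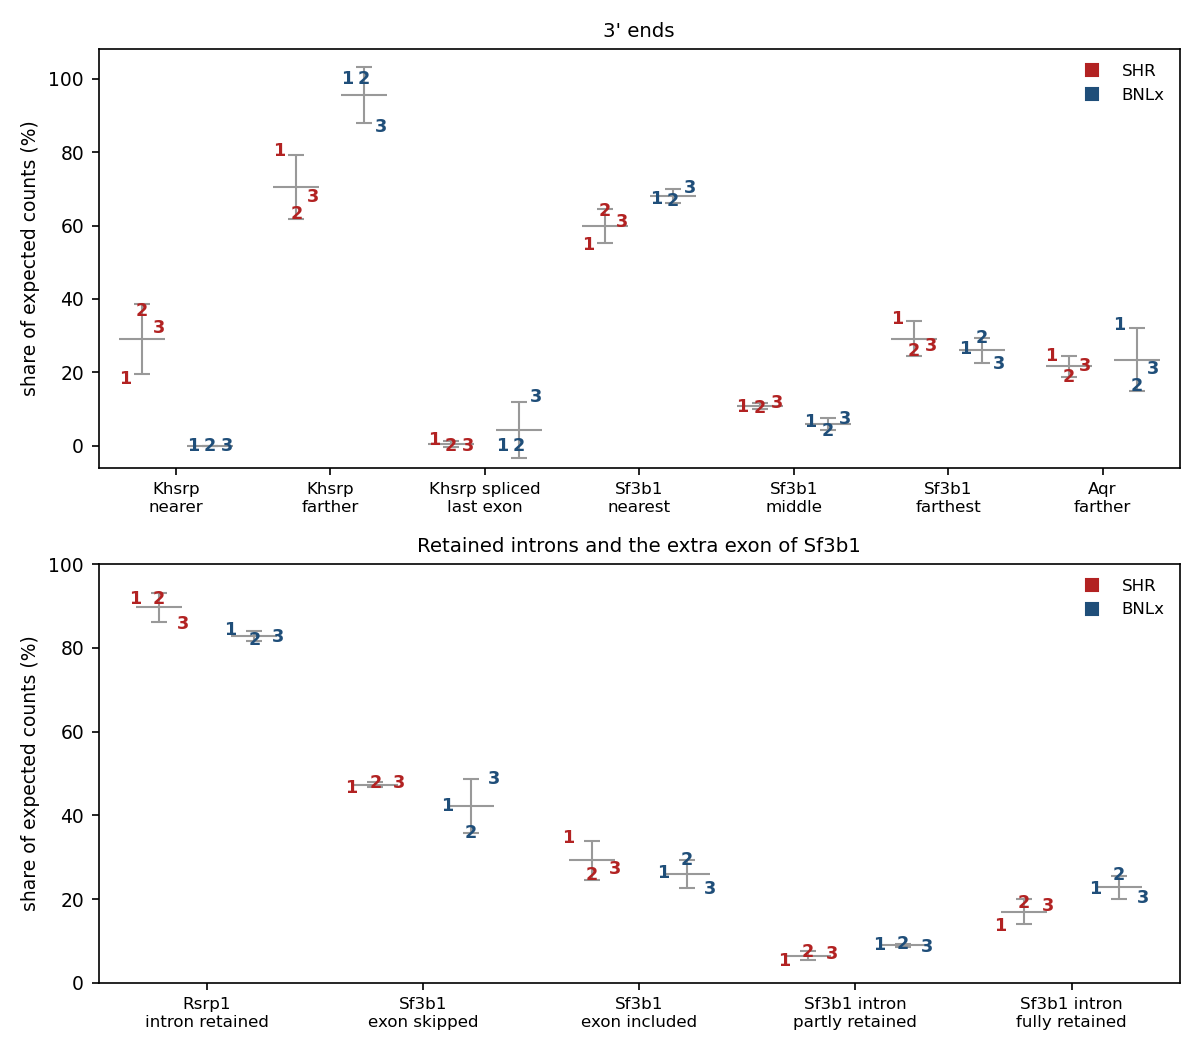
Share of expected counts (percent, y axis) of each polyA end (top) and each intron form (bottom) of the genes named on the x axis. Numbers are replicates of SHR (red) and BNLx (blue), and grey bars give the mean and SD (n = 3 each). The shorter Khsrp end is at 18.3% to 36.8% in SHR and 0% in BNLx, whereas the Sf3b1 and Aqr ends are present in all 6 libraries.

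The description of the 4 genes as carrying strain-specific isoforms did not hold for Aqr itself. Its locus, STRG.13789, joins 2 Aqr transcripts (rn6 chromosome 3, minus strand, 105570292 to 105640463, 35 exons) with 4 other transcripts across a gap of 18494 bases. These 4 are called the Zfp770 side here, after the neighbouring gene Zfp770, a zinc finger protein. STRG.13789.4 and STRG.13789.4.1 carry its name, and STRG.13789.2 and STRG.13789.3 carry no gene name. The Aqr transcripts differ only in their 3′ ends, which lie 281 bases apart, and both had counts in all 6 libraries. The farther end held 24.5%, 18.8% and 21.7% of Aqr counts in SHR replicates 1 to 3, against 33.0%, 16.3% and 20.9% in BNLx replicates 1 to 3. The strains overlapped, with the highest and the lowest value both in BNLx.

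The isoforms of this locus that were at 0 in 1 strain lay on the Zfp770 side. The aptardi isoform of the single-exon Zfp770 transcript, STRG.13789.4.1, had 0 counts in each SHR library, against 153, 60.4 and 23.9 counts in BNLx replicates 1 to 3. It was at least 34.1-fold lower in SHR, and 0 counts allow a share of the Zfp770 side of up to 0.383%, 0.82% and 0.865% in SHR replicates 1 to 3. The 2-exon transcript STRG.13789.3 had 118, 0 and 35.1 counts in SHR replicates 1 to 3 and 0 in each BNLx library, so SHR replicate 2 did not differ from BNLx. The shorter single-exon transcript STRG.13789.4 had 0, 67.8 and 40.5 counts in SHR replicates 1 to 3, against 0, 0 and 21.7 counts in BNLx replicates 1 to 3. The 3-exon transcript STRG.13789.2 held most counts of the Zfp770 side in all libraries, at 85.0%, 81.5% and 78.2% in SHR replicates 1 to 3, against 71.8%, 71.9% and 80.6% in BNLx replicates 1 to 3, and the strains overlapped. These transcripts share nearly all their bases: STRG.13789.4.1 has 13 bases of its own and STRG.13789.4 and STRG.13789.3 have 0. STRG.13789.3 does have 1 junction of its own, and STRG.13789.2 has 208 bases and 2 junctions of its own.

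The gene totals differed less than the isoforms, but the isoforms chose these genes, so nothing is read from that comparison. None of the 4 totals passed the test of edgeR at a Benjamini-Hochberg adjusted p of 0.05, against 1.02% of all 14471 genes tested, and none did with DESeq2. At an unadjusted p of 0.05, 1 of the 4 passed with edgeR, against 10.2% of all genes tested. Isoform usage, tested by edgeR over 7742 loci, passed in 4 of the 4 loci at an adjusted p of 0.05, against 4.37% of all loci, and this contrast again chose them. With limma on voom values, usage passed in 2 of the 4, Rsrp1 and Sf3b1, against 2.22% of all loci. The usage test for the Aqr locus cannot tell Aqr from Zfp770.

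Rsrp1 totalled 323, 268 and 268 CPM in SHR replicates 1 to 3, against 422, 390 and 328 CPM in BNLx replicates 1 to 3. All SHR libraries lay below all BNLx libraries, with SHR replicate 1 and BNLx replicate 3 nearly meeting. The log2 fold change was -0.41 (standard error 0.15), and -0.60 without those 2 libraries, where the total passed the test. In that setting 28.8% of all genes passed, so nothing is read from the pass. Whether a lower total comes from fewer cells of a type or from less RNA per cell cannot be told apart in these bulk samples. Sf3b1 totalled 344, 343 and 339 CPM in SHR replicates 1 to 3, against 350.0, 353 and 299 CPM in BNLx replicates 1 to 3. The strains overlapped, and the log2 fold change was 0.04 (standard error 0.12) and -0.04 without BNLx replicate 3.

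Khsrp totalled 61.1, 64.6 and 63.3 CPM in SHR replicates 1 to 3, against 53.8, 59.0 and 54.6 CPM in BNLx replicates 1 to 3. The ranges did not overlap, and the log2 fold change was 0.18 (standard error 0.09) in counts and 0.42 in TPM, which divides by isoform length. The Aqr locus totalled 73.0, 77.6 and 73.5 CPM in SHR replicates 1 to 3, against 63.2, 64.2 and 68.2 CPM in BNLx replicates 1 to 3, again without overlap, at log2 0.20 (standard error 0.09). Split by gene, the Aqr transcripts were at 57.5 ± 2.14 CPM in SHR and 47.5 ± 2.99 CPM in BNLx, and the Zfp770 side at 17.0 ± 1.34 CPM in SHR and 17.8 ± 0.812 CPM in BNLx (SD, n = 3 each). The higher total of the locus in SHR thus lay in the Aqr transcripts. Over all genes tested, CPM did not overlap between strains for 17.4%, and 3 of the 4 totals, those of Rsrp1, Khsrp and the Aqr locus, were of this kind. The astrocyte and microglia markers given above also did not overlap between strains, and their part in the totals was not tested.

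**Figure D5:**
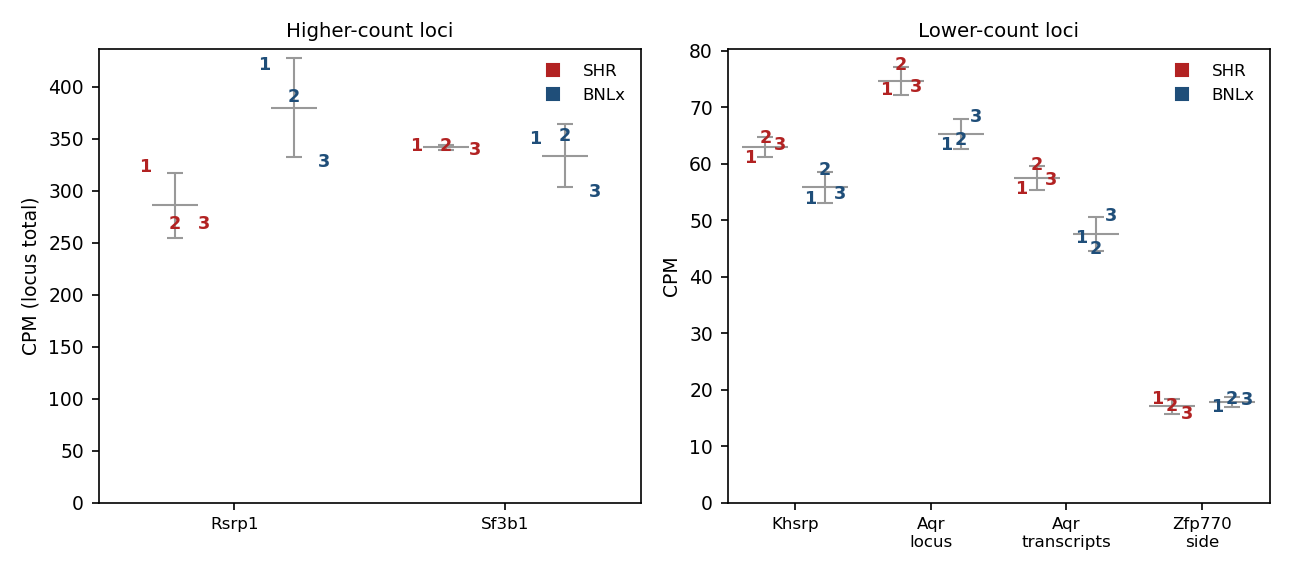
Scaled counts (CPM, y axis, from 0) of the 4 loci and, for the Aqr locus, of its Aqr transcripts and its Zfp770 side. Numbers are replicates of SHR (red) and BNLx (blue), and grey bars give the mean and SD (n = 3 each). Rsrp1 lies at 268 to 323 CPM in SHR and 328 to 422 CPM in BNLx, and Sf3b1 overlaps between strains.

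Levels per length, in TPM, put the genes in the same order in every library. Rsrp1 was highest, at 265 ± 13.1 TPM in SHR and 348 ± 23.0 TPM in BNLx, followed by Sf3b1 at 146 ± 7.06 TPM in SHR and 133 ± 3.10 TPM in BNLx (SD, n = 3 each). Khsrp had 41.4 ± 4.59 TPM in SHR and 30.96 ± 3.75 TPM in BNLx, and the Aqr transcripts 27.4 ± 2.52 TPM in SHR and 21.4 ± 2.32 TPM in BNLx (SD, n = 3 each). Within each strain, no neighbours in this order overlapped. By the pattern of log2 CPM over the 6 libraries, centred per gene, the 2 genes most like each were Egfl7 and Trappc6b for Rsrp1, Xpo5 and Tmem201 for Khsrp, Akirin1 and Agpat1 for Sf3b1, and Nckap1l and Slc39a9 for the Aqr locus. The mean absolute difference from these genes was 0.02 to 0.03 on the log2 scale, among 4647 or 4648 genes compared, whose medians were 0.196 to 0.287. The closest of so many genes over 6 libraries differ little by the search itself, so nothing is read from the likeness.

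None of the other tested genes of the splicing machinery passed the gene-level test with all libraries. The 5 lists with 266 further genes of the spliceosome, SR proteins, hnRNP and KH-domain regulators, and exon junction and decay factors had 129 genes named in the annotation and 128 tested. Of these, 0 rose and 0 fell with edgeR (adjusted p of 0.05), beside 0.504% higher and 0.511% lower in SHR over all genes, 0 passed with DESeq2, and 5 had an unadjusted p of 0.05 or less with edgeR, against 1478 of all 14471 genes. The median log2 fold change was -0.03 over the lists and 0.00 over all genes, and 27 of the 128 lie in loci that join several named genes. This count changed with the libraries used. Without SHR replicate 1 and BNLx replicate 3, 27 of the 128 passed, 6 higher and 21 lower in SHR, or 21.1%, against 28.8% of all genes. Over all genes, 2181 passed higher and 1991 lower in SHR in that setting, which leaves 2 libraries per strain.

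In the lists for the U1 and U2 particles and for the later spliceosome, the genes named for large fold changes were Sf3a3, a subunit of the SF3A complex, at log2 0.44 (standard error 0.12), the Sm protein gene Snrpe at -0.28 (standard error 0.23) and Crnkl1, a partner of the Prp19 complex, at 0.74 (standard error 0.21). Sf3a3 averaged 49.4 ± 5.13 CPM in SHR and 36.4 ± 3.02 CPM in BNLx, and Crnkl1 7.20 ± 0.609 CPM in SHR and 4.27 ± 0.745 CPM in BNLx (SD, n = 3 each), with edgeR adjusted p of 0.271 and 0.272. Neither overlapped between strains, and nor did Tra2a and Exosc3 below, both lower in SHR. Over all genes tested, CPM did not overlap for 17.4%. These genes were named for large fold changes, so nothing is read from their lack of overlap. The Sf3a3 locus also holds AC142187.1, so its values are those of the joined locus. Among SR proteins and their regulators these were Srpk3, a kinase of SR proteins, at 0.38 (standard error 0.52) and Tra2a at -0.33 (standard error 0.11). Among the RNA-binding regulators they were Celf3 at 0.46 (standard error 0.34) and Celf5 at 0.50 (standard error 0.40), and among the decay factors the exosome subunits Exosc3 at -0.39 (standard error 0.22) and Exosc7 at -0.39 (standard error 0.29). The Exosc3 locus also holds AC136163.1. Single libraries moved several of the log2 fold changes of these genes. Without BNLx replicate 3 they came to 0.14 for Celf3, 0.15 for Celf5, 0.04 for Srpk3 and -0.61 for Exosc7, and without BNLx replicate 2 to 0.72 for Celf3, 0.79 for Celf5, 0.71 for Srpk3 and -0.24 for Exosc7. Without SHR replicate 1 they came to -0.49 for Snrpe, -0.59 for Exosc7 and 0.71 for Srpk3, without SHR replicate 2 to -0.13 for Snrpe and 0.16 for Srpk3, and without SHR replicate 3 to 0.21 for Srpk3.

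Isoform usage passed in 5 of 92 loci of these lists that could be tested, 5.43%, against 4.37% of all loci. They were Sf3a3 (edgeR adjusted p of 0.00996), Srsf6, an SR protein (0.00705), Hnrnph3 (0.0385), the neuronal RNA-binding protein gene Elavl3 (0.0468), and Isy1, whose locus also holds Cnbp (1.1e-06). These 5 were named after their values were seen, and the Sf3a3 locus also holds AC142187.1. The gene totals of Srsf6, Hnrnph3, Elavl3 and Isy1 with Cnbp had log2 fold changes of -0.11, 0.00, 0.16 and -0.06, none past the test. Leaving out a library gave 2 to 7 such loci, against 204 to 577 over all loci. There were 2 without SHR replicate 2 or without SHR replicate 3, and 3 without BNLx replicate 1. Without SHR replicate 1 and BNLx replicate 3, 24 passed, against 1771 over all loci, where 338 passed with all libraries.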

How the data were processed

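PolyA RNA of whole brain from 3 SHR and 3 BNLx males was sequenced as 2x100-base pairs with an unstranded kit. The authors aligned reads to strain-specific versions of rn6 (HISAT2 2.1.0), assembled 1 transcriptome (StringTie 1.3.5, Ensembl 99), extended it by polyA ends that aptardi 1.0.0 predicted and deposited RSEM 1.2.31 expected counts, TPM and isoform percentages (percent of the TPM of the locus). The sequence RSEM used is not given in the sources used here. Deposited FPKM values were not used. The labels give 3 lanes, 1 of them with all 6 libraries, but not the libraries of the others, so strain and lane cannot be told apart.

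Expected counts were rounded and fitted with edgeR 4.0.16 (R 4.3.3; TMM, quasi-likelihood, two-sided, strain only, SHR over BNLx) over all isoforms or genes with at least 50 counts in 2 of 3 libraries of a strain. Isoform usage was tested with diffSpliceDGE. DESeq2 1.42.0, limma 3.58.1, upper-quartile scaling, no filter, a replicate block, shares of TPM, shares among isoforms past the filter and leaving out libraries were alternatives. The fits were tested on simulated data. Isoform CPM and gene CPM use separate TMM factors. Shares are percent of the expected counts of a locus. Lower bounds use 3 counts per library. P-values measure the spread between 3 animals per strain.

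The 4 genes, the lists and the tests were chosen with earlier results of these data known. Named were all isoforms of the 4 loci and, per splicing list, every gene called or else the 2 with the largest log2 fold change, of which 1 gene is not reported here. The authors' own fold changes and p-values were not used.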

Additional observations from a re-analysis of the deposited data

How the results depend on the processing

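Of the values recomputed under alternatives, 302 kept their side of the test or moved by less than the spread or the limit for counts, 35 moved further, and 5 newly passed a test. Of 260 differences and fold changes, 4 turned sign: the Sf3b1 total (-0.04 on the log2 scale without BNLx replicate 3, and also without SHR replicate 1 and BNLx replicate 3), the Sf3b1 extra exon and the farther Aqr end, given below. Counts over all features moved most. With DESeq2, 1166 isoforms, 550 genes and 7 isoforms of the 4 genes passed. Without SHR replicate 1 and BNLx replicate 3 together, 939 isoforms, 4172 genes, 1771 loci for usage, 27 splicing genes, 24 splicing loci for usage and 2 of the 4 totals (Rsrp1 and the Aqr locus) passed. A replicate block was fitted although same-numbered libraries did not all deviate together. Their correlations were -0.07, 0.35 and -0.24 for replicates 1 to 3, against -0.37 to 0.28 for pairs with other numbers. The block gave 48 isoforms, 0 genes with edgeR (1192 at an unadjusted p of 0.05 or less) and 1 isoform of the 4 genes, STRG.22384.1. With limma voom, usage passed in 172 loci and in 2 of the 4.

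Among values of the 4 genes, the Rsrp1 acceptor differed by 92.1 percentage points as a share of TPM, the extra exon of Sf3b1 by -1.27 without SHR replicate 1 and BNLx replicate 3, and the Rsrp1 total by -0.60 on the log2 scale without both. In TPM, which divides by isoform length, the log2 fold changes were 0.42 for Khsrp, 0.29 for the locus of Aqr and Zfp770 and 0.36 for the Aqr transcripts alone.

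Leaving out single libraries gave 183 to 400 isoforms, 12 to 156 genes, 204 to 577 loci for usage, 2 to 7 splicing loci for usage, 3 to 5 isoforms of the 4 genes and 3 or 4 of their loci for usage (Sf3b1 was lost without SHR replicate 3). The difference of the Sf3b1 extra exon ranged from 0.521 to 4.94 percentage points, and the Rsrp1 total from -0.51 to -0.33 on the log2 scale. The farther Aqr end ranged from -5.31 to 3.03 percentage points, positive without BNLx replicate 1. The cause was not tested. Having 3 libraries per strain, and isoforms without bases of their own, limits all shares.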
